A study of Rattus norvegicus with 6 samples.

Results

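The metalloproteinases and their tissue inhibitors were described in LN4D6 cells, a rat mammary tumour cell line, with and without CREB3L1. They were taken as every probe set annotated with exactly 1 gene symbol of the Mmp, Adam, Adamts or Timp families, together with Reck. This gave 52 genes read by 75 probe sets, out of 14217 named genes and 31042 probe sets tested. Of the 52 genes, 17 belonged to the Mmp family, 18 to the Adam family, 12 to the Adamts family and 5 were inhibitors. One group was untransfected LN4D6 cells and the other was LN4D6 cells transfected with CREB3L1, a membrane-bound transcription factor of the endoplasmic reticulum. Each group had 3 samples, and total RNA of each sample was hybridised to 1 Affymetrix 3' expression array. The cells with CREB3L1 were compared with cells that received no transfection, so the act of transfection and CREB3L1 cannot be told apart. The vector, its promoter, the time after transfection and whether the transfected cells were a clone or a pool were not given. The comparison asked which transcripts differ after transfection.

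Matrix metalloproteinases (MMPs) are zinc-dependent endopeptidases that cut collagens, laminins, proteoglycans and other proteins of the extracellular matrix. Most are secreted as inactive proenzymes, and the membrane-type MMPs stay anchored at the cell surface. ADAMs are membrane-bound relatives, some of which shed growth factors, cytokines and receptors. ADAMTS enzymes are secreted relatives that cut proteoglycans and procollagens. TIMPs are secreted proteins that block the active site of these enzymes, and RECK is a membrane-anchored inhibitor. In mammary tissue and tumours these genes are known for remodelling of the basement membrane and for invasion.

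Values are log2 RMA expression values, and each log2 difference is the CREB3L1 mean minus the untransfected mean, with its standard error. They were tested with limma, with p-values adjusted by Benjamini-Hochberg over all 31042 probe sets and a threshold of 0.05. Levels are means ± SD with n = 3 per group. Where a gene had several probe sets, the one with the highest mean over all arrays represented it. The background level was set at a log2 value of 5, since the table holds no detection calls. No probe set's level was set against another's. In bulk samples, fewer cells with a transcript and less of it per cell cannot be told apart.

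CREB3L1 replicate 3 stood apart from the other arrays. Its Pearson correlation with them across probe sets was 0.984 to 0.988, and the remaining 5 correlated at 0.996 to 0.999. On it the Gapdh control gave 3' minus 5' signal of 4.77, compared with -0.16 to -0.10 elsewhere. The same quantity for beta-actin was 7.44, compared with 2.35 to 3.41. Differences of the genes described one by one above background are therefore given with and without this array. The rat Creb3l1 probe set read 3.36 ± 0.02 and 3.39 ± 0.03, below background in both groups, and it may not detect the construct. Of 7 epithelial markers, Krt8, Krt5 and Krt14 were above background, while Krt18, Krt19, Epcam and Cdh1 were not. Of 7 fibroblast markers, Col3a1 was above background, while Col1a1, Col1a2, Pdgfra, Pdgfrb, Dcn and Thy1 were not. Of 6 macrophage markers, Csf1r and Cd14 were above background, while Ptprc, Cd68, Aif1 and Lyz2 were not. All 9 measured endothelial, adipocyte and neutrophil markers lay below background.

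The promoters of 3 MMP genes that lie near each other, Mmp13, Mmp3 and Mmp10, are shown first. These genes were chosen because each was lower on every CREB3L1 array than on any untransfected array. Mmp11, Mmp19, Timp1 and Timp2 were so too, and in all 8 of the 75 member probe sets (7.75% of all probe sets). In the rat assembly GRCr8 of RefSeq, Mmp13, Mmp3 and Mmp10 belong to a row of 10 Mmp genes on chromosome 8. The order is Mmp13, Mmp12, Mmp1b, Mmp3, Mmp1, Mmp10, Mmp8, Mmp27, Mmp20 and Mmp7. Of these, 6 were measured. The last 150 bases before the start of transcription are printed for Mmp13 (chr8:12782679-12782828), Mmp3 (chr8:12925131-12925280) and Mmp10 (chr8:12974557-12974706), all on the plus strand. Capitals mark TGANTCA, which with C or G at N is the motif bound by AP-1 (dimers of Fos and Jun proteins), and TATAAA, the TATA box.
Mmp13: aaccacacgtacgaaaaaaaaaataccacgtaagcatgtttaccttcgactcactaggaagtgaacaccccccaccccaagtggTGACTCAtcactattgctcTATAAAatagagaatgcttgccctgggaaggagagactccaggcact
Mmp3: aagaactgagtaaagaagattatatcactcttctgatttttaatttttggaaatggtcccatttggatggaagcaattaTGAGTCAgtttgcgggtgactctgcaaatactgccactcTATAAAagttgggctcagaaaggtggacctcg
Mmp10: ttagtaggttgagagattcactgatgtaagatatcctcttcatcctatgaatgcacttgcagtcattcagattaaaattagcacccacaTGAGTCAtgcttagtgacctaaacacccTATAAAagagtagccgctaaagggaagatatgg
TGANTCA, searched on both strands, lay 66 to 60 bases before the start in Mmp13, 71 to 65 in Mmp3 and 61 to 55 in Mmp10. TATAAA, searched on the strand of the gene only, lay 47 to 42, 32 to 27 and 33 to 28 bases before the start. Over the 250 bases before the start, 6.34% of 33469 RefSeq promoters held TGANTCA, 8.06% held TATAAA and 0.693% held both. The shares with TGANTCA count any base at N. Promoters were matched for 31 of the 52 genes, and 6 of them held TGANTCA, namely Mmp3, Mmp7, Mmp10, Mmp12, Mmp13 and Adam19. The promoters of Timp1, Timp2, Reck, Adam8 and Mmp11, described below, held neither TGANTCA nor TATAAA. Of the 6 measured genes of the row, 5 held both motifs, the exception being Mmp8. Mmp13, Mmp7 and Mmp12 were below background, at 3.93, 2.42 and 2.59 in untransfected cells. Mmp7 and Mmp12, which held both motifs, had differences of -0.02 ± 0.05 and -0.01 ± 0.05, and their groups overlapped. The motif TGACGT, the core of the cyclic AMP response element, was searched on both strands and found in 1 of the 31 promoters, that of Adam1a, and in 6.95% of all promoters. The motif GGGCGG, searched on both strands, was found in 18 of the 31 promoters and in 30.5% of all promoters. Those of Timp1, Timp2, Reck, Adam8 and Mmp11 were among the 18. So were those of Mmp24, Mmp28, Adam15, Adam17 and Adamts1, which were at or above background and past the threshold in no fit. A match is a description of letters and shows no binding.

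Over the whole family, 15 of the 52 genes had a group mean at or above background, against 54.3% of all named genes. The rest were spread over every subgroup. Both gelatinase genes were among them, with Mmp2 at 2.45 ± 0.08 and 2.47 ± 0.05 and Mmp9 at 1.95 ± 0.04 and 1.95 ± 0.05. So were the collagenase genes Mmp8 and Mmp13, the matrilysin gene Mmp7, the inhibitor genes Timp3 and Timp4, and 14 of 18 Adam genes, among them Adam9 and Adam10. Leaving aside Mmp13, Mmp19 and Mmp11, described below, 33 of the other 34 genes below background had a difference smaller than 0.1 in size. The exception was Adam4, at 0.37 ± 0.26, where CREB3L1 replicate 3 read 3.25 and the other 5 arrays 2.23 to 2.39. Values below background carry little information on transcript levels, since the second probe sets of Timp2 and Adam8 lay below it while the first ones did not. Adam12 and Mmp1 were not analysed here.

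**Figure D1:**
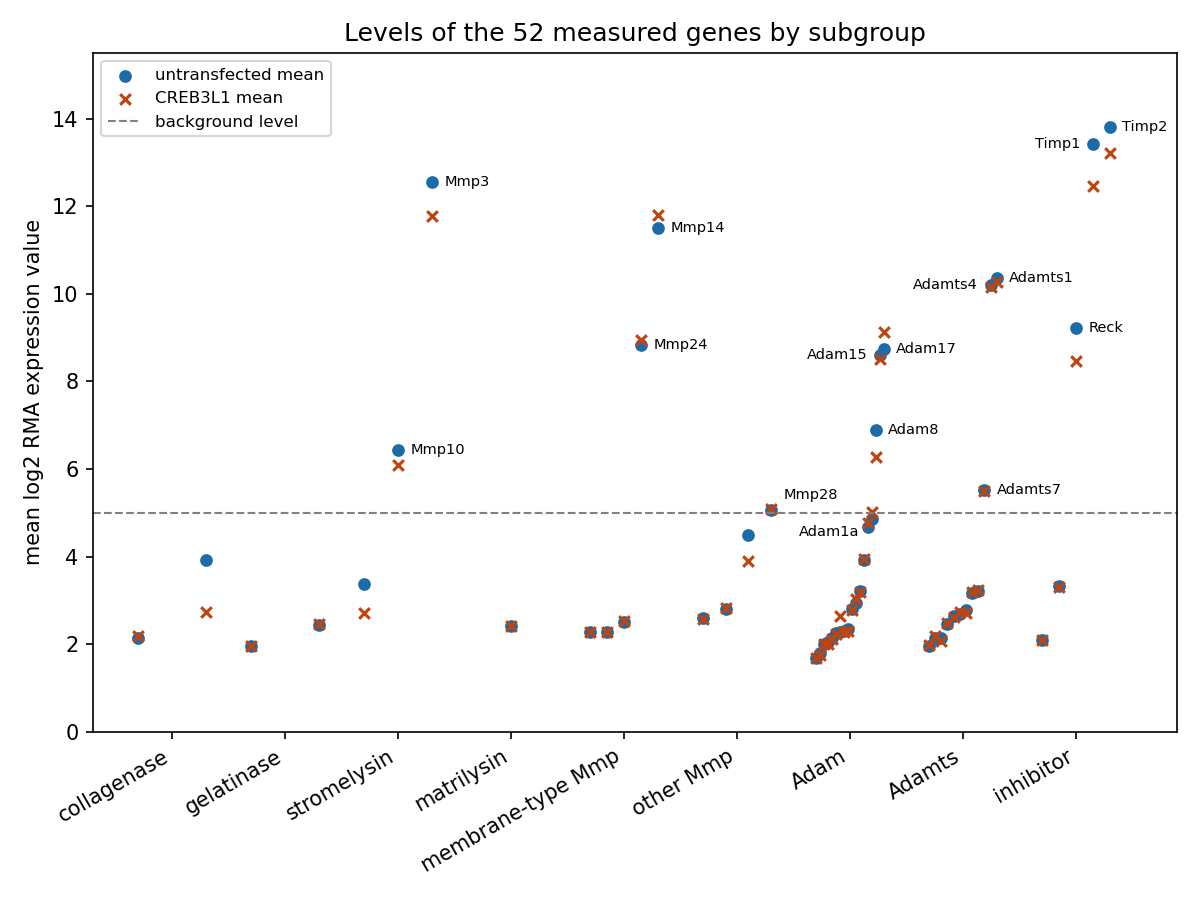
Mean log2 RMA expression value (vertical axis) of each of the 52 genes in untransfected cells (dots) and CREB3L1 cells (crosses), by subgroup, with the background level of 5 dashed. The 15 genes with a group mean at or above background are named, and most points below the line coincide between the groups. Heights of different genes are not comparable, since they come from different probe sets.

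No member passed the test with all 6 arrays. Of the 75 probe sets, 0 were called higher, against 0.425% of all probe sets, and 0 lower, against 0.963%. The smallest adjusted p was 0.0592. At an unadjusted p below 0.05, 2 probe sets were higher (4.17% of all probe sets) and 8 lower (5.49%). An ordinary test without moderation also called 0 members. The groups did not overlap, with CREB3L1 lower, for 8 probe sets (7.75% of all probe sets), and with CREB3L1 higher for 1 (6.52%). The median difference was -0.01 over the 52 genes and -0.01 over all named genes. Without CREB3L1 replicate 3, 5 probe sets were lower past the threshold (2.44% of all probe sets) and 0 higher (1.54%). These were Timp1, Timp2, Reck, Mmp3 and Adam8. All 5 are among the 16 member probe sets with a mean of 5 or more over all arrays. Among all probe sets at that level, 5.69% were lower and 3.74% higher past the threshold without that array.

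The 3 inhibitor genes above background were all lower in CREB3L1 cells, by 0.61 to 0.96 with all arrays, without passing the test. Each of them passed it without CREB3L1 replicate 3. Timp1 encodes a secreted inhibitor of most soluble MMPs. It read 13.52, 13.39 and 13.34 in untransfected cells and 12.72, 12.63 and 12.01 in CREB3L1 cells. Every CREB3L1 array was lower than every untransfected one, with replicate 3 the lowest. The difference was -0.96 ± 0.20, with 51.3% of the untransfected level left (adjusted p = 0.136). Without CREB3L1 replicate 3, Timp1 fell by 0.74 ± 0.07 (adjusted p = 0.00992), a 1.67-fold decrease.

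Timp2 encodes the inhibitor that, together with MT1-MMP, also serves activation of pro-MMP2 at the cell surface. It read 13.88, 13.72 and 13.84 in untransfected cells and 13.34, 13.26 and 13.02 in CREB3L1 cells. The groups did not overlap and replicate 3 was again the lowest. The difference was -0.61 ± 0.10 (adjusted p = 0.0657, 95% interval -0.85 to -0.36). Without replicate 3 Timp2 fell by 0.51 ± 0.06 (adjusted p = 0.0192), a 1.43-fold decrease. A second Timp2 probe set, below background in both groups, also had no overlap and gave -0.20 ± 0.07 (adjusted p = 0.453).

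Reck encodes the membrane-anchored inhibitor, known to restrain MMP2, MMP9 and MT1-MMP. It read 8.97, 9.24 and 9.43 in untransfected cells and 8.06, 8.37 and 8.99 in CREB3L1 cells. CREB3L1 replicates 1 and 2 lay below all untransfected arrays, while replicate 3 lay just above the lowest of them. The difference was -0.74 ± 0.26 (adjusted p = 0.432). Without replicate 3 Reck fell by 0.998 ± 0.162 (adjusted p = 0.0427), which left 50.1% of the untransfected level. Replicate 3 thus moved the estimate of Reck towards 0 and those of Timp1 and Timp2 away from it.

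Timp3, whose product is bound to the matrix and also inhibits ADAM17, was read by 4 probe sets, all below background. Its representative read 3.25, 3.38 and 3.33 in untransfected cells and 3.41, 3.28 and 3.25 in CREB3L1 cells. Timp4, the remaining inhibitor of the family, read 2.10, 2.14 and 2.07 against 2.15, 2.14 and 1.99. Both genes lay below background, and no difference is drawn from them. In GRCr8, Timp1, Timp3 and Timp4 each lie within a synapsin gene, Syn1, Syn3 and Syn2 in that order. The Syn1 probe set was below background in both groups, at 2.23.

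**Figure D2:**
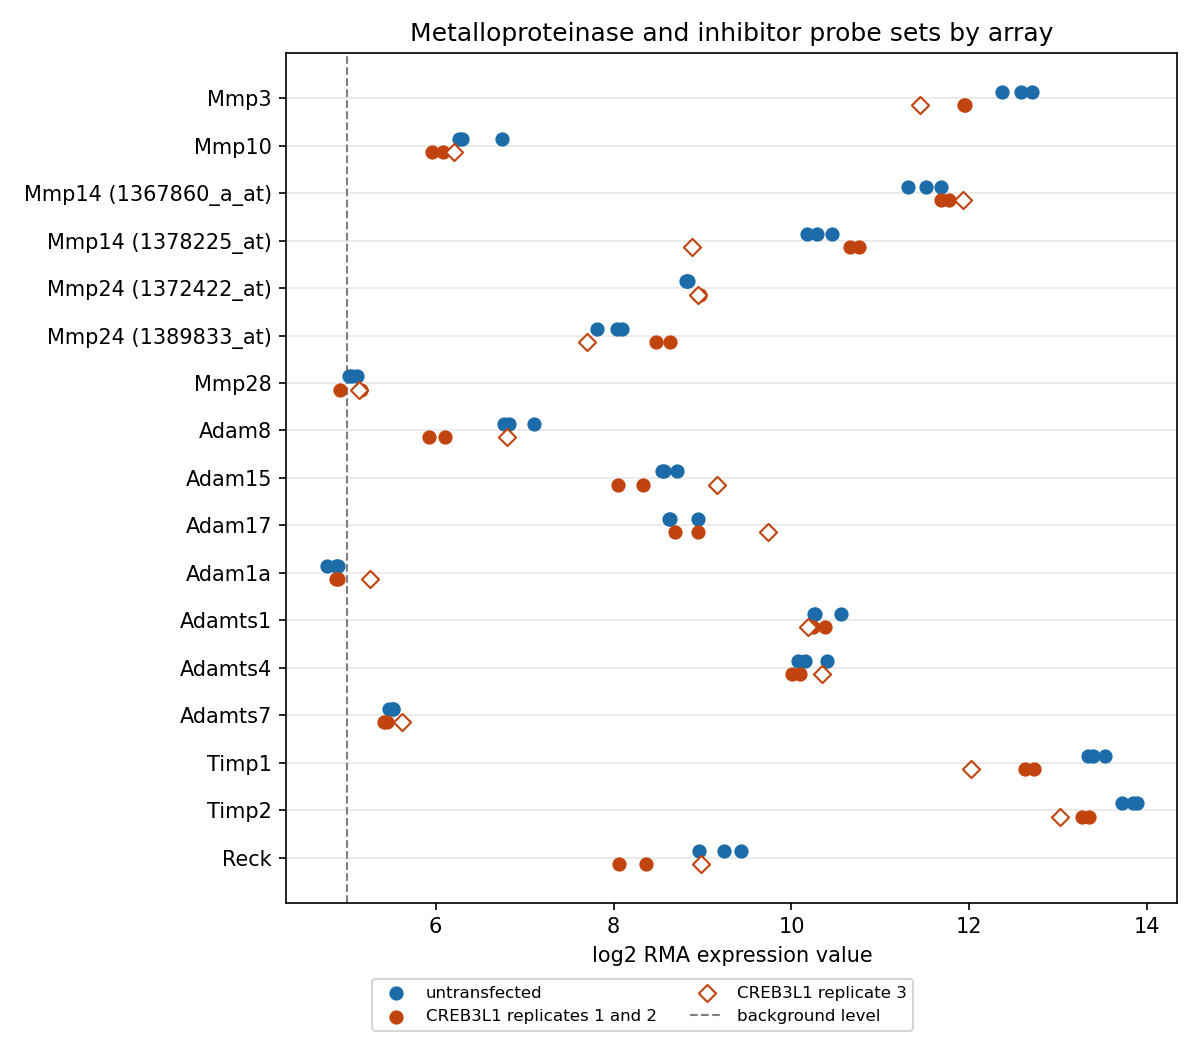
Log2 RMA expression value (horizontal axis) on each array for the 17 member probe sets with a group mean at or above background, with probe set names where a gene has several. Blue dots are untransfected arrays, filled orange dots CREB3L1 replicates 1 and 2, open diamonds CREB3L1 replicate 3 and the dashed line the background level. Timp1, Timp2, Mmp3 and Mmp10 lie lower and the representative Mmp24 probe set higher on every CREB3L1 array. The diamond lies apart from the filled orange dots for, among others, Adam8, Adam15, Adam17, Timp1, Reck and 1 probe set each of Mmp14 and Mmp24.

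Of the secreted MMP genes above background, the stromelysin gene Mmp3 passed the test without replicate 3, and Mmp10 and Mmp28 passed it in neither fit. Its product cuts proteoglycans, laminin and fibronectin and activates other MMPs. Mmp3 read 12.58, 12.71 and 12.37 in untransfected cells and 11.94, 11.96 and 11.45 in CREB3L1 cells. The groups did not overlap. The difference was -0.77 ± 0.17 (adjusted p = 0.158, 95% interval -1.19 to -0.34). Without CREB3L1 replicate 3 Mmp3 fell by 0.60 ± 0.10, with an adjusted p of 0.0492, just inside the threshold.

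Mmp10, which encodes the related stromelysin-2, read 6.27, 6.75 and 6.30 in untransfected cells and 5.96, 6.08 and 6.21 in CREB3L1 cells. The groups did not overlap, but the gap between them was narrow. The difference of -0.35 ± 0.15 did not pass the test with all arrays (adjusted p = 0.572) or without replicate 3 (-0.42 ± 0.16, adjusted p = 0.333).

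The collagenase gene Mmp13 had the largest difference of the 52 genes in size, but both groups lay below background and no fold is given. It read 3.57, 3.93 and 4.28 in untransfected cells and 2.77, 2.76 and 2.64 in CREB3L1 cells. The difference was -1.20 ± 0.18 (adjusted p = 0.0592) and -1.16 ± 0.21 without CREB3L1 replicate 3 (adjusted p = 0.0529). It passed the threshold without untransfected replicate 1 (adjusted p = 0.0488) and with a mean-variance trend (0.0306). Mmp19 and Mmp11 behaved alike below background. Mmp19, an MMP of the basement membrane, read 4.28, 4.80 and 4.39 against 3.81, 4.10 and 3.77 (adjusted p = 0.257). Mmp11, or stromelysin-3, read 3.77, 3.42 and 2.94 against 2.83, 2.93 and 2.40 (adjusted p = 0.494). In both genes all CREB3L1 arrays lay below all untransfected ones, and without replicate 3 the differences were -0.54 ± 0.18 and -0.50 ± 0.24 (adjusted p = 0.246 and 0.496). Of the 3 stromelysin genes measured, all 3 had a difference below 0, and 0 passed the test with 6 arrays. Mmp11, 1 of the 3, lay below background, and 30 of all 52 genes had a difference below 0.

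The membrane-type MMP genes above background lay on the other side of 0. Mmp14 encodes MT1-MMP, a collagenase of the cell surface and the activator of pro-MMP2. Its representative probe set read 11.51, 11.32 and 11.68 in untransfected cells and 11.68, 11.77 and 11.93 in CREB3L1 cells. The lowest CREB3L1 array was level with the highest untransfected one, within 0.01. The difference was 0.29 ± 0.11 (adjusted p = 0.511) and 0.22 ± 0.11 without replicate 3 (adjusted p = 0.523).

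The second Mmp14 probe set disagreed on replicate 3 alone. It read 10.46, 10.28 and 10.18 in untransfected cells and 10.76, 10.66 and 8.89 in CREB3L1 cells. CREB3L1 replicates 1 and 2 lay above all untransfected arrays and replicate 3 far below them. The difference was -0.20 ± 0.53 with all arrays and 0.41 ± 0.09 without replicate 3 (adjusted p = 0.0985). Both Mmp14 probe sets were thus higher in CREB3L1 cells without that array, and neither passed the test.

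Mmp24, which encodes MT5-MMP, an enzyme known best from the nervous system, gave the narrowest spread. Its representative read 8.84, 8.82 and 8.82 in untransfected cells and 8.97, 8.95 and 8.95 in CREB3L1 cells. This was the only member probe set on which every CREB3L1 array was higher. The difference was small, 0.13 ± 0.03 (adjusted p = 0.144, 95% interval 0.06 to 0.20), and 0.13 ± 0.03 without replicate 3 (adjusted p = 0.127). A second probe set read 8.03, 8.09 and 7.81 against 8.64, 8.48 and 7.70, again with replicate 3 below all others. It gave 0.29 ± 0.26 with all arrays (adjusted p = 0.9998) and 0.58 ± 0.10 without replicate 3, with an adjusted p of 0.0505. The remaining Mmp24 probe set was below background. Mmp28, which encodes epilysin, lay at the background level, with 5.07 ± 0.05 and 5.08 ± 0.13 and a difference of 0.01 ± 0.07, or -0.02 ± 0.08 without replicate 3. Mmp15, Mmp16 and Mmp17, further membrane-type genes, were below background in both groups.

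**Figure D3:**
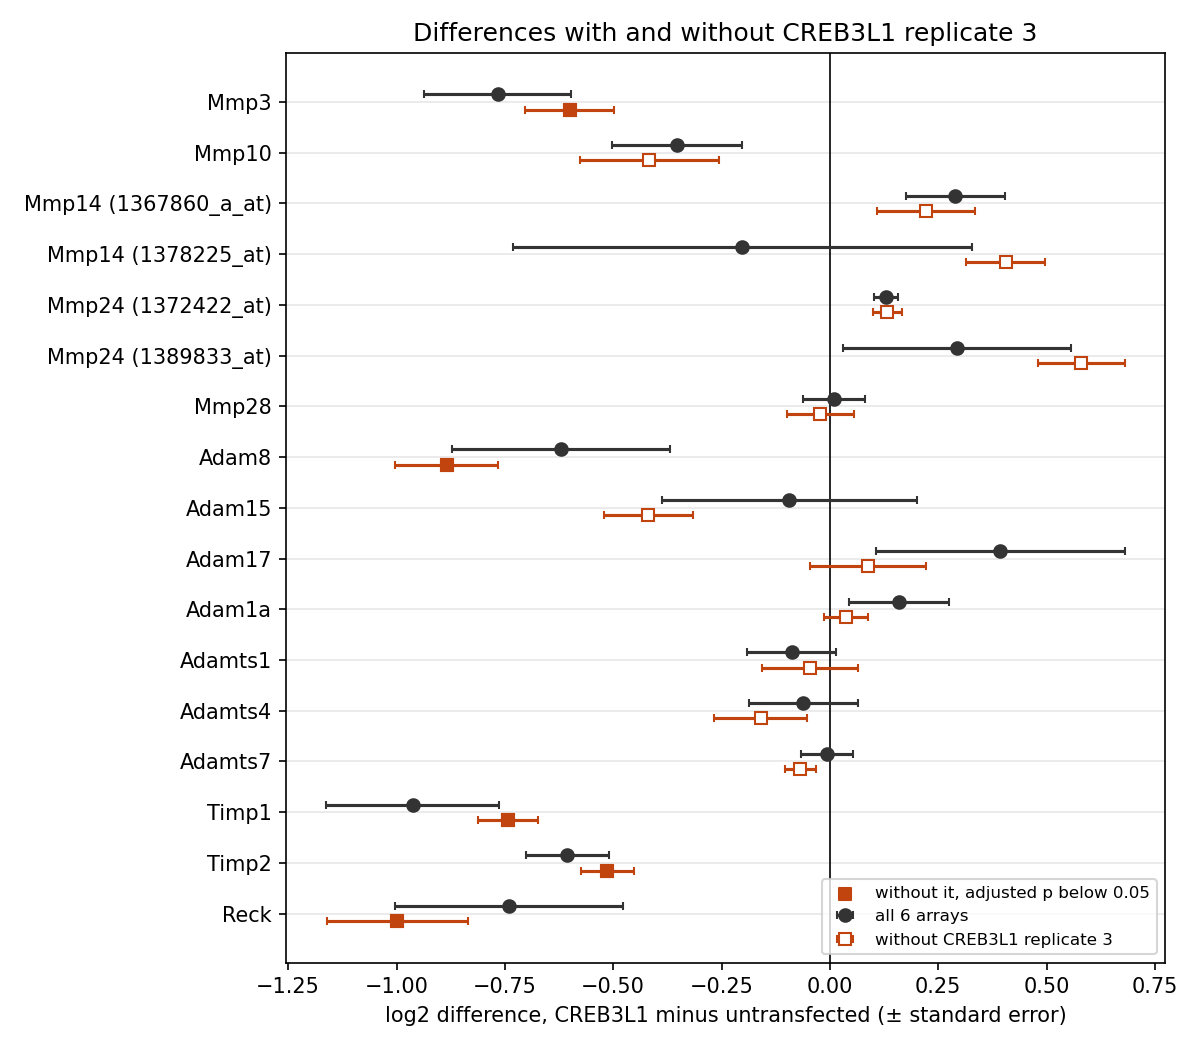
Log2 difference, CREB3L1 minus untransfected, with its standard error (horizontal axis) for the 17 member probe sets at or above background, from all 6 arrays (black dots) and without CREB3L1 replicate 3 (orange squares). Filled squares mark the 5 probe sets past an adjusted p of 0.05 without that array, namely Mmp3, Adam8, Timp1, Timp2 and Reck. All 5 lie left of 0, and no black dot marks a member past the threshold.

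Of the ADAM genes, Adam8 was lower. Its product is a sheddase of adhesion molecules known from leukocytes and invasive tumours. It read 6.83, 6.77 and 7.11 in untransfected cells and 6.10, 5.93 and 6.81 in CREB3L1 cells. Replicates 1 and 2 lay below every untransfected array, and replicate 3 lay among them. The difference was -0.62 ± 0.25 (adjusted p = 0.529). Without replicate 3 Adam8 fell by 0.88 ± 0.12 (adjusted p = 0.0265), a 1.85-fold decrease. A second Adam8 probe set was below background, at 2.29 and 2.28.

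Adam15 and Adam17 turned on replicate 3. Adam15, whose product carries an integrin-binding motif, read 8.57, 8.54 and 8.72 in untransfected cells and 8.33, 8.05 and 9.17 in CREB3L1 cells. Replicates 1 and 2 were the lowest arrays and replicate 3 the highest. The difference was -0.09 ± 0.29 with all arrays and -0.42 ± 0.10 without replicate 3 (adjusted p = 0.122). Adam17 encodes TACE, the main sheddase of tumour necrosis factor and of EGF receptor ligands. It read 8.62, 8.63 and 8.95 in untransfected cells and 8.69, 8.95 and 9.74 in CREB3L1 cells. The groups overlapped, and the difference of 0.39 ± 0.29 (adjusted p = 0.981) was 0.09 ± 0.13 without replicate 3. Adam1a, the fertilin alpha gene, reached background only through replicate 3, with 5.26 there and 4.78 to 4.91 on the other arrays. Its difference was 0.16 ± 0.11, and 0.04 ± 0.05 without replicate 3. Adam19 lay just under background at 4.66 and 4.76.

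The ADAMTS genes above background showed no difference larger than the spread. Adamts1, a protease of aggrecan and versican known for anti-angiogenic repeats, read 10.26, 10.25 and 10.55 against 10.24, 10.38 and 10.18. The 95% interval of its difference ran from -0.35 to 0.17. Adamts4, an aggrecanase, read 10.07, 10.16 and 10.40 against 10.10, 10.001 and 10.34, with an interval of -0.38 to 0.26. Adamts7, whose product cuts cartilage oligomeric matrix protein, lay near background at 5.51 ± 0.03 and 5.50 ± 0.11, with an interval of -0.16 to 0.15. In all 3 genes the groups overlapped. Without replicate 3 the differences were -0.05 ± 0.11, -0.16 ± 0.11 and -0.07 ± 0.04, with adjusted p of 0.563 or more. The interval of Adamts4 still allows a decrease of the size measured for Mmp10. Adamts5, the other main aggrecanase gene, was below background on both of its probe sets.

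Replicate 3 did not shift the family one way. Of the 16 member probe sets at or above background without it, which leaves out Adam1a, it was the lowest CREB3L1 array for 6, the highest for 8 and between the others for 2. The SD over these probe sets of replicate 3 minus the mean of replicates 1 and 2 was 0.733, while that of replicate 1 minus replicate 2 was 0.167. For Mmp14 and Mmp24, 2 probe sets of the same gene moved apart on this array, by -1.82 against 0.20 and by -0.86 against -0.01. This array is also the one with the wide gaps between the 3' and 5' control probe sets. The part of those gaps in the member values was not tested.

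Other genes of the pathway were taken from 4 lists drawn from general knowledge. Of 30 measured genes of pericellular proteolysis outside the family, 0 rose and 0 fell with limma and all 6 arrays, and 0 did without CREB3L1 replicate 3. By gene, 0.577% of all named genes rose and 1.52% fell, and without that array 2.02% rose and 3.70% fell. At an unadjusted p below 0.05, 0 were higher and 2 lower. These were Serpinb2, an inhibitor of plasminogen activators, at -0.49 ± 0.13 (adjusted p = 0.243), and Plau, which encodes urokinase, at -0.69 ± 0.21 (adjusted p = 0.328). Without replicate 3 they gave -0.43 ± 0.14 and -0.67 ± 0.24 (adjusted p = 0.230 and 0.295). Plau was called without untransfected replicate 1 (adjusted p = 0.0136). The median difference of the list was -0.03.

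Of 18 measured activators and partners of metalloproteinases, 0 rose and 1 fell (0.577% and 1.52% of all named genes). At or above background were 13 of the 18. The gene that fell was Cd9, a tetraspanin known as a partner of ADAM17 and of integrins. It read 14.28, 14.14 and 14.26 in untransfected cells and 13.83, 13.74 and 13.66 in CREB3L1 cells. No arrays overlapped. Cd9 fell by 0.48 ± 0.06 (adjusted p = 0.0338, and 0.0247 without replicate 3).

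Of 30 measured substrates shed by ADAM proteases, 2 rose and 1 fell (0.577% and 1.52% of all named genes). Without replicate 3, 3 rose and 1 fell (2.02% and 3.70%). At or above background were 16 of the 30. Notch1, a receptor cut by ADAM10 and ADAM17 during signalling, read 8.06, 7.72 and 8.08 in untransfected cells and 6.50, 6.36 and 5.84 in CREB3L1 cells. Every CREB3L1 array was lower by over 1. Notch1 fell by 1.72 ± 0.20, a 3.29-fold decrease (adjusted p = 0.0277), and by 1.52 ± 0.13 without replicate 3 (adjusted p = 0.00722). Its second probe set lay below background. Nrg1, which encodes neuregulin ligands of the ERBB receptors, rose by 0.60 ± 0.08 (adjusted p = 0.0407). Without replicate 3 the difference was 0.59 ± 0.09 (adjusted p = 0.0384). Of its 8 probe sets 2 passed the test and 4 were below background. The remaining ones gave 0.74 ± 0.17 (adjusted p = 0.169) and -0.21 ± 0.92. The last of these read 10.36 and 10.41 on CREB3L1 replicates 1 and 2 and 7.21 on replicate 3, against 9.32 to 9.70 in untransfected cells. Pvr, an adhesion receptor, rose by 0.59 ± 0.08 (adjusted p = 0.0407), and by 0.59 ± 0.09 without replicate 3 (adjusted p = 0.0373). Epha2, an ephrin receptor, was called only without replicate 3, at 0.36 ± 0.05 (adjusted p = 0.0285), against 0.51 ± 0.13 with all arrays (adjusted p = 0.225).

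Of 16 measured transcription factors known for metalloproteinase promoters, 1 rose and 1 fell (0.577% and 1.52% of all named genes). Without replicate 3, 3 rose and 1 fell (2.02% and 3.70%). These shares are not matched on level, since 14 of the 16 were at or above background, against 54.3% of all named genes. The factors called only without replicate 3 were Jun, a subunit of AP-1, and Runx1. Jun read 11.65, 11.70 and 11.55 in untransfected cells and 11.98, 11.97 and 10.44 in CREB3L1 cells. Its difference was -0.17 ± 0.44 with all arrays (adjusted p = 0.9998), while without replicate 3 it rose by 0.34 ± 0.05 (adjusted p = 0.0407). Runx1, a Runt-domain factor, gave 0.42 ± 0.11 with all arrays (adjusted p = 0.239) and rose by 0.30 ± 0.05 without replicate 3 (adjusted p = 0.0459). Nfkb1, a subunit of NF-kB, rose from 10.45 ± 0.02 to 10.95 ± 0.05, by 0.51 ± 0.04 (adjusted p = 0.00637), and by 0.48 without replicate 3 (0.00500). Ets2, an ETS factor, fell from 10.17 ± 0.02 to 9.76 ± 0.07, by 0.42 ± 0.04 (adjusted p = 0.0190), and by 0.38 without replicate 3 (0.0117). None of the arrays overlapped in either gene. With 1 array other than CREB3L1 replicate 3 left out, Cd9, Notch1 and Ets2 lost their call each time and Nrg1 and Pvr in 4 of 5 cases, while Nfkb1 kept it. With a mean-variance trend Nrg1, Pvr, Ets2 and Nfkb1 lost it (adjusted p = 0.0903, 0.0707, 0.187 and 0.0765). In the ordinary test all but Nfkb1 lost it (adjusted p = 0.0824 to 0.185), as did Cd9 and Pvr with median centring (0.0573 and 0.0548) and Nrg1 with quantile normalisation (0.0504) and with its probe sets averaged (0.683).

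**Figure D4:**
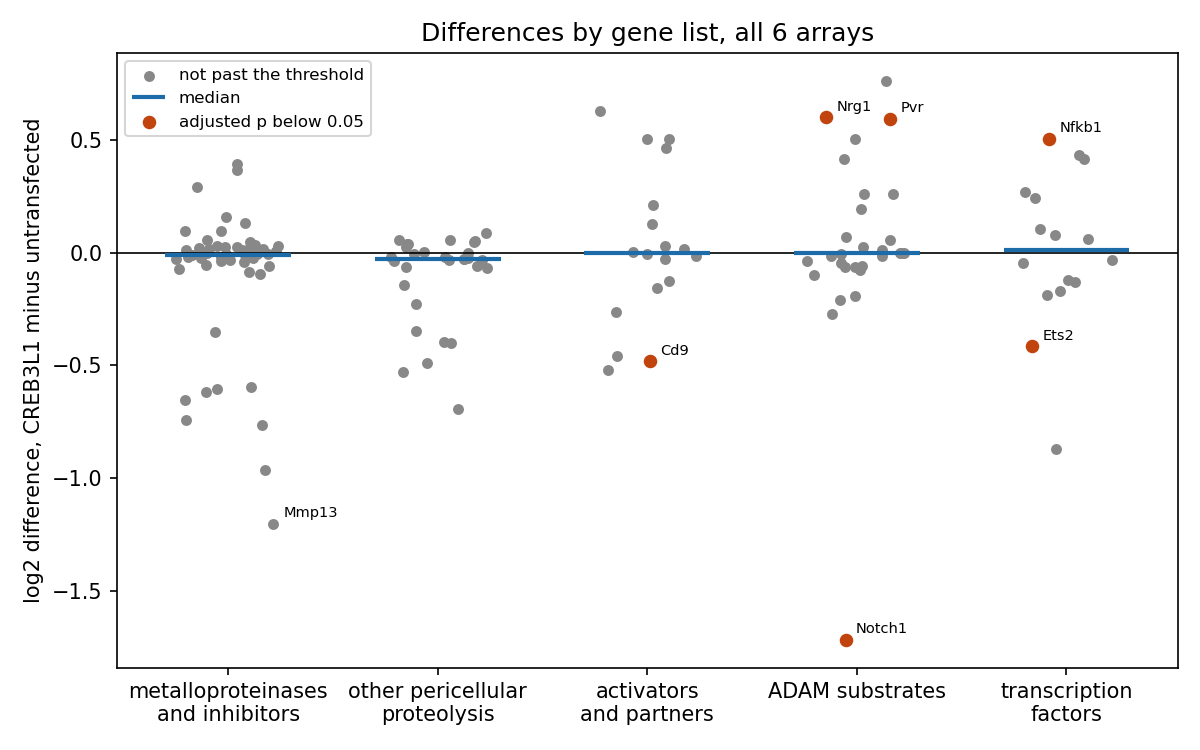
Log2 difference, CREB3L1 minus untransfected, from all 6 arrays (vertical axis) for each gene of the metalloproteinase and inhibitor family and of the 4 further lists. Grey dots did not pass an adjusted p of 0.05, orange dots did, and blue bars are the medians of the lists, -0.01 for the family. The 6 named orange dots are Cd9, Nrg1, Pvr, Notch1, Nfkb1 and Ets2, and no member of the family is orange.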

How the data were processed

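The authors deposited 1 table of log2 expression values. The submitters' processing notes name RMA and Partek 6.6. Probe-level settings and the log base are not given in the sources used, and values of 0.27 to 17.2 were taken as log2. Array medians were 2.97 to 3.06. Total RNA was labelled with biotin by a 3' kit, per the labels' protocols. Groups came from the transfection label. Replicates were numbered in deposit order, and separate cultures are not stated, so p-values measure only the spread between these samples, which may be technical. At most 10 values were equal between any 2 arrays.

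Of 31099 probe sets, 57 controls were left out. Symbols came from GEO's platform annotation. All 75 member probe sets matched RefSeq (GRCr8) by gene ID with the same symbol. limma 3.58.1 (R 4.3.3) compared 3 with 3 arrays, two-sided. On simulated data of 31042 probe sets for this comparison, it recovered 54% of log2 changes of 0.5 and 94% of changes of 1. The simulated noise was independent and equal on all arrays. The changed probe sets were drawn from all 31042, of which 11943 had a mean of 5 or more over all arrays. Recovery was not measured apart for those, so these shares may not hold for members above background. The number of arrays limits the precision. Members and lists were chosen with earlier results of these data known. Named are a fixed set of genes where measured, members at or above background or called in any fit with all arrays or without 1 of them, and called list genes or, where none was called, the 2 smallest p. Mmp19, Mmp11, Adam4, Jun, Runx1 and Epha2 were chosen after their values were seen. Alternatives were quantile normalisation, median centring, leaving out dim probe sets, other variance models, each array left out, probe set means and other background levels.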

Additional observations from a re-analysis of the deposited data

How the results depend on the processing

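With 1 array left out, 28 to 479 probe sets were higher and 116 to 756 lower, against 132 and 299 with all 6, and 0 to 5 member probe sets were lower. The upper ends came from leaving out CREB3L1 replicate 3. With any other 1 array left out, Timp1, Timp2, Reck, Mmp3 and Adam8 were not called. Their smallest limma adjusted p was then 0.118, for Timp2 without CREB3L1 replicate 1. An ordinary test without moderation called 9 higher and 65 lower, and a mean-variance trend 79 higher and 1 member, Mmp13, lower. The members' median difference was -0.088 with dim probe sets left out, which removes the genes below background and leaves 15. Among genes with a mean of 5 or more over all arrays, it was -0.091 over 14 members and 0.0065 over all 7652. Adamts7, near 0, turned positive with quantile normalisation (0.18) and with median centring (0.0041). With 1 array left out, differences crossed 0 for Adam15 (-0.42 to 0.14), Adamts1 (-0.14 to 0.012), Adamts4 (-0.16 to 0.035), Adamts7 (-0.068 to 0.033) and Mmp28 (-0.032 to 0.083). Differences of Timp1, Timp2, Reck, Mmp3 and Adam8 stayed below 0 in all these fits. For Timp1, Timp2 and Mmp3, whose groups did not overlap, leaving out 1 array could not change the sign. The other variance models use the same differences, so they could not change a sign either. Mmp13 was called where probe sets were averaged by gene (adjusted p = 0.0487), where fewer features were tested. No paired analysis was possible because no replicate number in the labels is shared by both groups. Levels near background limit what can be said of 37 of the 52 genes.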
